A study of Mus musculus with 8 samples.

Results

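The comparison is between tNT lines of early and of late passage, mouse embryonic stem cell lines made by tetraploid nuclear transfer. All 6 tNT lines of the series belong to it, out of 8 lines in all. The early class holds lines 1, 2 and 5, at passages 17, 19 and 18, and the late class holds lines 3, 4 and 6, at passages 25, 29 and 25. The classes follow the passage number that the design text gives each line, and the other 2 lines, made by nuclear transfer alone, carry no such number and were left out. All 6 lines are labelled tetraploid and of mixed strain, and all were prepared by double sedimentation. No treatment or further genotype is given for any of them. Total RNA of each line was hybridised to 1 Illumina bead array. Each line is a separate culture that was sampled at 1 passage only, so passage cannot be told apart from any other way in which the 3 early lines and the 3 late lines differ.

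Passage counts how often a culture has been divided and replated. Mouse embryonic stem cells renew themselves through a core of transcription factors around Pou5f1, Sox2 and Nanog, supported by LIF signalling. Long culture of such cells is known for gained or lost chromosomes, for drift in DNA methylation at imprinted and germ line genes, and for the dilution of the fibroblast feeder cells on which many lines are derived. Genes of each of these kinds were therefore described, beside those with the strongest differences.

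Of 25697 probes, 10764 were above background on at least 3 of the 6 arrays and were tested, and these represent 7570 named genes when the brightest probe of each gene is taken. The arrays each had between 10449 and 10955 probes above background, and 9460 of the tested probes were so on all 6. The core pluripotency genes Pou5f1, Sox2 and Nanog were above background on all 6 arrays. Xist, the RNA that coats an inactive X chromosome, was above background on no array by either of its probes. Line 2 stood apart from the others: it was the line farthest from the median of the 6 lines for 3911 probes, 36.3% of those tested, and line 3 came next with 19.4%.

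No probe passed an adjusted p of 0.05 between late and early lines (limma, 0 of 10764, 0.0%), and the smallest adjusted p was 0.995. At an unadjusted p under 0.05, limma marked 444 probes, 4.12% of those tested. Of these, 204 were higher in late lines (1.9%) and 240 lower (2.23%). The 3 late values lay wholly to one side of the 3 early values for 918 probes (8.53%), above them for 449 (4.17%) and below them for 469 (4.36%). Among the named genes, 118 were higher (1.56%) and 183 lower (2.42%) at an unadjusted p under 0.05, and the classes did not overlap for 284 higher genes (3.75%) and 356 lower genes (4.7%). The plot of unadjusted p-values has no excess at its left end.

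**Figure D1:**
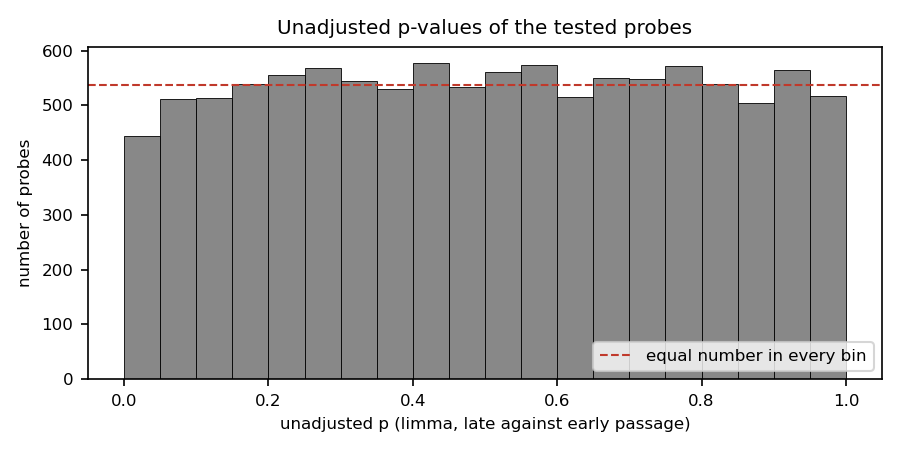
Number of tested probes (y axis) in each of 20 equal bins of the unadjusted limma p of the late against early comparison (x axis), with a dashed line at the number each bin would hold if all were equal. The lowest bin, p under 0.05, holds 444 probes and is the smallest of the 20.

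The precision of the comparison was limited by the number of lines. The 95% confidence interval of a late minus early difference reached a median of 0.40 to either side on the log2 scale. For 9984 probes (92.8%) the whole interval lay within a 2-fold difference in either direction. Only 27 probes had a mean difference over 1 on the log2 scale, 10 of them higher and 17 lower in late lines. In 18 of these 27 the most extreme of the 6 values was that of line 2, and the classes did not overlap for 11. Gene values below are given with the 95% interval of the late minus early difference on the log2 scale from limma, not widened for the number of probes, and since every adjusted p was 0.995 or more, none of them is a call.

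Lines of like passage had no higher correlations on average than lines of unlike passage. Pearson correlations between arrays over the tested probes lay between 0.968 and 0.985 among the early lines, between 0.977 and 0.989 among the late lines, and between 0.965 and 0.993 across the classes. The closest pair was line 5, early, with line 6, late, at 0.993. The mean correlation within classes minus that between classes was -0.000212 (exact permutation test, one-sided, p = 0.4 over 10 assignments, the smallest possible p being 0.1).

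**Figure D2:**
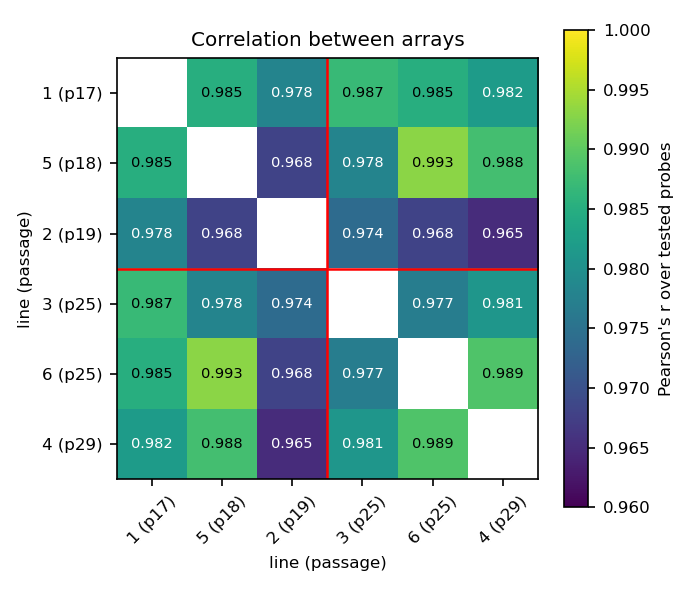
Pearson correlation between each pair of arrays over the tested probes, with the lines ordered by passage on both axes and red lines between the early and the late class. The brightest cell joins early line 5 and late line 6 at 0.993, and the 4 darkest cells all involve line 2.

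More probes were separated by line number than by passage. The values of lines 4 to 6 lay wholly to one side of those of lines 1 to 3 for 2431 probes (22.6%), against 8.53% for passage. With the passage class in the model, 68 probes (0.632%) differed between these sets of lines at an adjusted p under 0.05 in limma. This split was chosen with earlier results of these data known, and each set holds both passage classes. The split is plain in Cops8, a subunit of the COP9 signalosome, which had normalized log2 intensities of 5.13, 5.19 and 4.57 for lines 1 to 3 but 9.83, 10.02 and 10.02 for lines 4 to 6. Its late minus early difference of 1.36 (95% interval -2.55 to 5.27) arose with 2 late lines and 1 early line in the higher set, and within the sets the difference was -0.59 and -0.10. With single lines left out it ranged from 0.42 to 3.14. Psmd8, a proteasome subunit, ran the other way, at 10.19, 10.34 and 10.18 for the first 3 lines and 7.18, 7.33 and 6.95 for the last 3.

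Among the 12 genes with the smallest p in the lower direction, limma p ran from 0.000366 to 0.00536 and all 12 had classes that did not overlap. In the higher direction p ran from 0.00736 to 0.0123, and 11 of 12 had classes that did not overlap. These genes were picked for their p, so the separation of their classes is a description only.

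**Figure D3:**
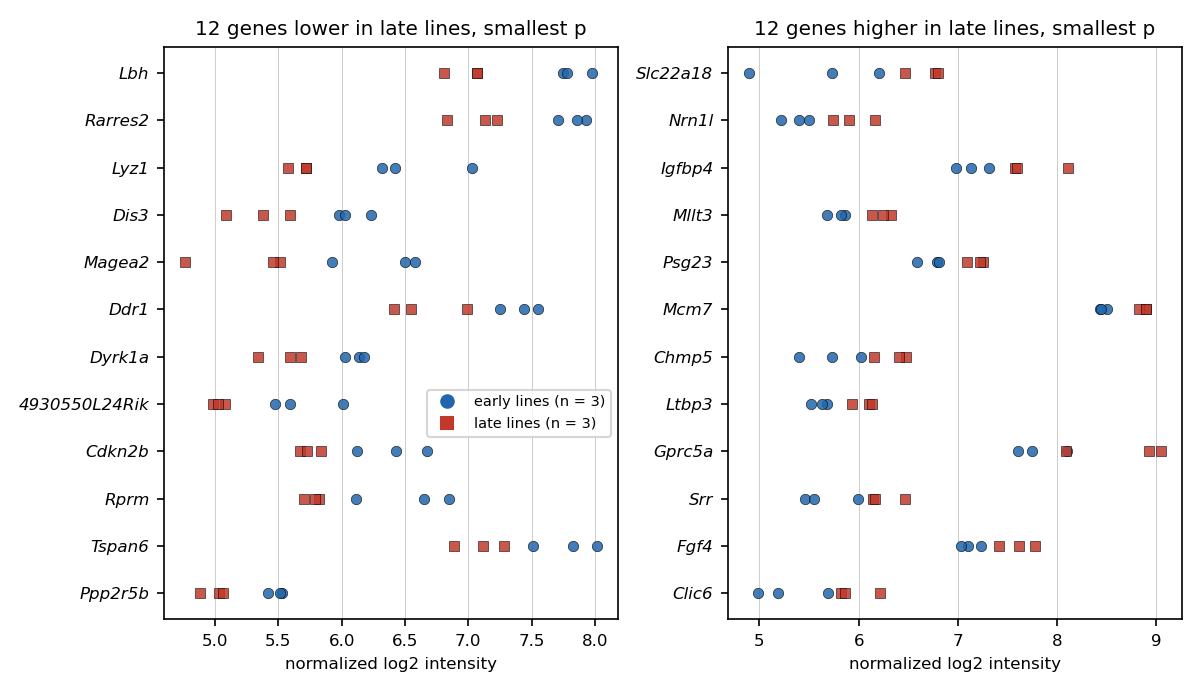
Normalized log2 intensity (x axis) of each of the 6 lines for the 12 genes of smallest p in each direction, with early lines as blue circles and late lines as red squares. All late values lie to one side of the early ones in 23 of the 24 genes, the exception being Gprc5a, where late line 6 (8.09) lies beside early line 5 (8.10).

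Lbh, a transcriptional cofactor first described in limb bud and heart, had the smallest p of all probes. Its normalized log2 intensity was 7.75, 7.98 and 7.78 in early lines 1, 2 and 5, and 6.81, 7.07 and 7.07 in late lines 3, 4 and 6. All late lines were lower, by 1.81-fold on average (difference -0.85 ± 0.15 SE, 95% interval -1.19 to -0.52). A second probe of Lbh differed by only -0.15, so the size of the difference depends on the probe.

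Rarres2 encodes chemerin, a secreted chemoattractant. It measured 7.93, 7.86 and 7.71 in the early lines and 7.23, 6.83 and 7.13 in the late lines, 1.71-fold lower in the late ones (difference -0.77 ± 0.16 SE, 95% interval -1.13 to -0.41). The classes were apart in both sets of lines, with differences of -0.66 within lines 1 to 3 and -0.74 within lines 4 to 6. Lyz1, a lysozyme gene with a near-identical neighbour in Lyz2 from which a probe may not separate it, measured 6.32, 7.03 and 6.42 in the early lines and 5.72, 5.72 and 5.58 in the late ones. Line 2 was the highest, and the late lines were the 3 lowest (difference -0.92, 95% interval -1.38 to -0.46).

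The receptor tyrosine kinase Ddr1, which binds collagen, measured 7.44, 7.55 and 7.25 in early lines against 6.55, 6.41 and 6.99 in late lines (difference -0.76, 95% interval -1.19 to -0.34). Late line 6 was nearest to the early lines in Ddr1. A pair of genes that restrain the cell cycle stood in the same list. Cdkn2b, an inhibitor of the kinases Cdk4 and Cdk6, measured 6.43, 6.67 and 6.12 in early lines and 5.67, 5.73 and 5.84 in late lines (difference -0.66, 95% interval -1.05 to -0.27). Rprm, reprimo, which is linked to arrest before mitosis, measured 6.85, 6.65 and 6.11 in early lines and 5.82, 5.70 and 5.79 in late lines (difference -0.77, 95% interval -1.23 to -0.31). In both genes early line 5 was the lowest of its class and still above every late line.

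Dis3, a nuclease of the RNA exosome, was above background on all 3 early arrays and on 1 late array, at 6.23, 5.98 and 6.03 against 5.09, 5.38 and 5.59. Dyrk1a, a kinase, was above background on 2 of the late arrays and differed by -0.58 (95% interval -0.92 to -0.25). Ppp2r5b, a regulatory subunit of protein phosphatase 2A, and the unnamed X-linked 4930550L24Rik were above background on all 3 early arrays and on no late one. The late level is then only a bound, taken on each array as the higher of the probe's own value and the lowest signal above background, and the early level was at least 1.01-fold higher for Ppp2r5b and at least 1.17-fold higher for 4930550L24Rik (limma, adjusted p = 0.995 for both).

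The largest differences in the lower direction rested in good part on line 2. Gbp2, an interferon-inducible guanylate-binding protein, measured 7.04, 8.95 and 6.03 in lines 1, 2 and 5 and 5.01, 5.16 and 5.58 in lines 3, 4 and 6, and was above background on 1 late array. The measured values did not overlap between the classes, and the difference of -2.09 (95% interval -3.53 to -0.66) became -1.29 without line 2. With 2 late values not above background, the size of the Gbp2 difference is uncertain. Mmp13, a collagenase, measured 8.01, 8.96 and 7.87 in early lines and 7.20, 6.63 and 7.45 in late lines, a difference of -1.19 (95% interval -1.92 to -0.46) and of -0.85 without line 2. Line 2 was likewise the highest line for Car4, a carbonic anhydrase (difference -1.56, -1.05 without line 2 and -0.95 without line 4), Lor, the epidermal protein loricrin (-1.32, -0.59 without it), and Spink1, a trypsin inhibitor (-1.22, -0.76 without it).

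In the higher direction the smallest p belonged to Slc22a18, an imprinted gene of an organic cation transporter. It measured 5.73, 4.89 and 6.20 in early lines 1, 2 and 5 and 6.77, 6.80 and 6.47 in late lines 3, 4 and 6, and was above background on 2 early and on all 3 late arrays. The classes did not overlap, with a difference of 1.08 ± 0.30 SE, or 2.12-fold (95% interval 0.38 to 1.78). The late lines were close to each other, while the early lines spread over more than 1 unit.

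The Mcm7 values were close to each other within each class. This subunit of the helicase that unwinds DNA at replication measured 8.50, 8.43 and 8.44 in early lines and 8.90, 8.82 and 8.90 in late lines, with a mean of 8.46 ± 0.04 (SD, n = 3) against 8.87 ± 0.05 (SD, n = 3). The difference of 0.42, or 1.34-fold, was alike within lines 1 to 3 (0.44) and within lines 4 to 6 (0.42), with a 95% interval of 0.13 to 0.71. Fgf4, the growth factor that pluripotent cells secrete and that readies them for differentiation through ERK, measured 7.10, 7.23 and 7.03 in early lines and 7.62, 7.78 and 7.41 in late lines. The late lines were 1.40-fold higher (difference 0.48, 95% interval 0.14 to 0.83), again in both sets (0.45 and 0.56).

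Igfbp4, which binds insulin-like growth factors, measured 7.31, 7.13 and 6.98 in early lines and 8.11, 7.58 and 7.60 in late lines (difference 0.62, 95% interval 0.20 to 1.05), and its other probe differed by 0.47. The other 8 of the 12 were Nrn1l, Mllt3, Psg23, Chmp5, Ltbp3, Gprc5a, Srr and Clic6, with differences between 0.45 and 0.87. Clic6 was above background on 1 early array and Nrn1l on 2, so the size of their differences is uncertain. The other probe of Mllt3 differed by 0.20. Psg23 belongs to a family of near-identical pregnancy-specific glycoprotein genes, so its probe may read several of them.

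The largest differences in the higher direction came mostly from lines 3 and 4. Prph, the intermediate filament peripherin, measured 5.52, 4.79 and 4.73 in early lines and 7.05, 6.09 and 5.52 in late lines (difference 1.21, 95% interval 0.33 to 2.09), with line 6 level with line 1. It was above background on 1 early and on all 3 late arrays, so the size of the difference is uncertain, and it was 0.79 without line 3. Atp2a3, a calcium pump of the endoplasmic reticulum, measured 7.52, 7.58 and 7.17 in early lines and 9.08, 8.56 and 7.43 in late lines (difference 0.93, 95% interval 0.07 to 1.79, and 0.57 without line 3), and late line 6 lay within the early range. The same 2 late lines were the highest for Islr2, Klk1 and Klk1b27, with line 6 inside the early range in each. Klk1 and Klk1b27 are neighbouring kallikrein genes of very similar sequence.

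The X chromosome had the largest median difference of any chromosome. Of 254 X-linked genes, 199 (78.3%) were lower in late lines, against 3596 of 7311 autosomal genes (49.2%), and the median X-linked difference was -0.16 against 0.00 for autosomal genes. At an unadjusted p under 0.05, 23 X-linked genes were lower (9.06%) and 0 higher, against 2.42% of all named genes lower. The classes did not overlap for 27 lower X-linked genes (10.6%) and for 0 higher ones, against 4.7% and 3.75% of all named genes. No X-linked gene passed the adjusted threshold in limma, and genes of a chromosome are not independent of each other, so no test is given.

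The shift did not follow passage line by line. The median deviation of the X-linked genes from their median over the 6 lines was 0.13, -0.04 and 0.06 in early lines 1, 2 and 5, and -0.18, -0.17 and 0.07 in late lines 3, 4 and 6. Late lines 3 and 4 were the lowest, while late line 6 was level with early line 5. Line 3 lay below all 3 early lines for 136 of the 254 genes (53.5%, against 22.6% of autosomal genes), and so did line 4, also for 136 (against 23.9%). Line 6 did so for 43 (16.9%, against 23.0%), and it lay above the median of the early lines for 134 (52.8%, against 47.2%). Lines 3 and 4 were the lowest pair of the 6 for 93 X-linked genes (36.6%), against 6.7% of autosomal genes.

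Set against single early lines, line 3 was lower than line 1 for 88.2% of the X-linked genes and 47.5% of the autosomal ones. Line 4 was lower than line 1 for 87.0% of the X-linked and 50.2% of the autosomal genes. Against line 2, line 3 was lower for 65.0% of the X-linked genes (autosomal 48.8%) and line 4 for 61.8% (autosomal 49.6%). Against line 5 the shares were 80.3% for line 3 (autosomal 47.8%) and 81.9% for line 4 (autosomal 48.9%). Line 6 was lower than line 1 for 58.3% of the X-linked genes (autosomal 53%) and lower than line 2 for 36.2% (autosomal 51.7%). It was lower than line 5 for 47.6% (autosomal 51.8%). The class median of -0.16 became -0.25 without line 6, -0.22 without line 2 and -0.15 without line 5. It was -0.12 without line 1, -0.11 without line 3 and -0.10 without line 4. At a limma p under 0.05, 19 X-linked genes were lower and 0 higher without line 2, against 105 and 97 of 7311 autosomal genes. The lower X-linked genes numbered 9 without line 1 (autosomal 142) and 7 without line 4 (autosomal 84), but 51 without line 6 (autosomal 181). The class median was -0.10 under quantile normalization without background correction, and lay between -0.17 and -0.16 under the other normalizations. Within lines 1 to 3 the median difference was -0.22, and within lines 4 to 6 it was -0.13.

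**Figure D4:**
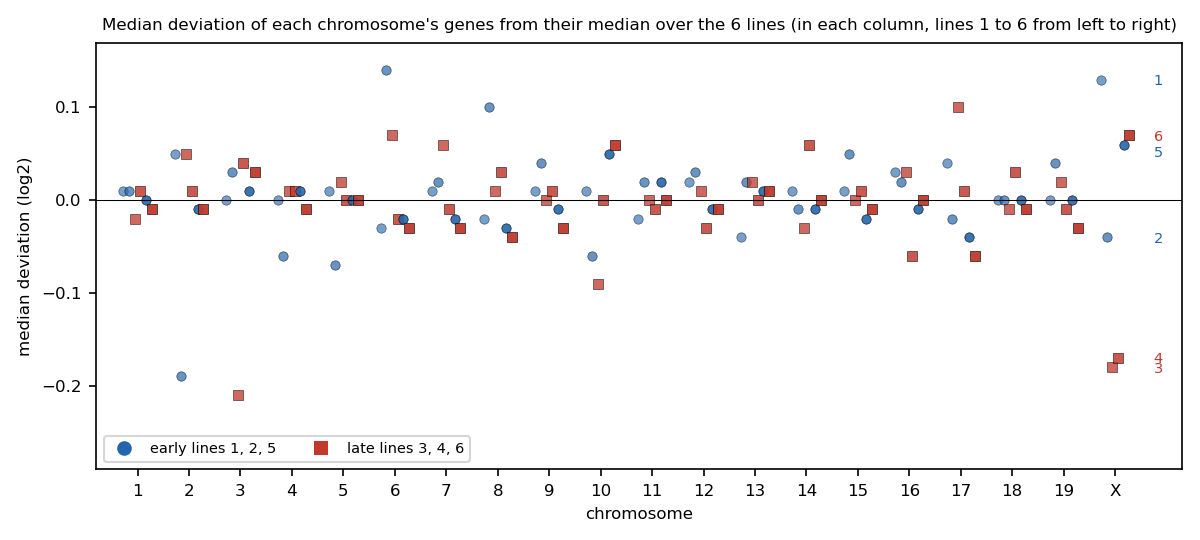
For each chromosome (x axis), the median over its genes of the deviation of each line from the gene's median over the 6 lines (y axis, log2), with early lines as blue circles, late lines as red squares and the lines 1 to 6 running from left to right within each column. On X, lines 3 and 4 lie at -0.18 and -0.17 and line 6 lies at 0.07 among the early lines, and single low points mark line 2 on chromosome 2 (-0.19) and line 3 on chromosome 3 (-0.21).

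The X-linked genes that were lower in late lines differed in where line 6 lay. Of the 23 at an unadjusted p under 0.05, 14 had classes that did not overlap, and in 18 of the 23 both line 3 and line 4 lay below line 6. These 23 were picked for their p, so both counts are a description only. Magea2, a melanoma antigen gene whose family is active in germ cells and many tumours, measured 6.58, 6.50 and 5.92 in early lines 1, 2 and 5 and 5.51, 4.76 and 5.46 in late lines 3, 4 and 6. All late lines were below the early ones, with a difference of -1.09 ± 0.26 SE, or 2.13-fold (95% interval -1.68 to -0.50), and the probe was above background on 2 of the 3 late arrays. Near-identical Magea genes may share this probe.

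Taf7l, a germ cell form of a subunit of the general transcription factor TFIID, measured 8.55, 8.19 and 7.90 in early lines and 7.90, 7.47 and 7.63 in late lines (difference -0.55, 95% interval -1.01 to -0.09), so that line 5 lay just above line 3. Huwe1, a ubiquitin ligase, measured 7.46, 7.14 and 7.13 in early lines and 6.74, 6.90 and 6.73 in late lines (difference -0.46, 95% interval -0.80 to -0.11). Tspan6, a tetraspanin, measured 7.83, 8.02 and 7.51 in early lines and 6.89, 7.12 and 7.28 in late lines (difference -0.69, 95% interval -1.10 to -0.27). In all 3 of these genes line 6, too, lay below every early line.

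Promoter methylation at CpG dinucleotides is known to silence part of the germ line genes in mouse embryonic stem cells, so the 250 bases before the start of 3 of these X-linked genes are shown, with each CpG in capitals. They are from RefSeq on GRCm38.p6 and are written from 5′ to 3′ on the strand of the gene, for Magea2 at chrX:155033293-155033542 on the minus strand, for Taf7l at chrX:134476491-134476740 on the minus strand and for the widely expressed Huwe1 at chrX:151803032-151803281 on the plus strand.
Magea2: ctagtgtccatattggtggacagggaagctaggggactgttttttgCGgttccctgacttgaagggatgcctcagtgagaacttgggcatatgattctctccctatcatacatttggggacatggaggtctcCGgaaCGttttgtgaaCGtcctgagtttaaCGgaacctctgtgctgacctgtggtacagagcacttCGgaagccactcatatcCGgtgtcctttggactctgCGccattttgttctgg
Taf7l: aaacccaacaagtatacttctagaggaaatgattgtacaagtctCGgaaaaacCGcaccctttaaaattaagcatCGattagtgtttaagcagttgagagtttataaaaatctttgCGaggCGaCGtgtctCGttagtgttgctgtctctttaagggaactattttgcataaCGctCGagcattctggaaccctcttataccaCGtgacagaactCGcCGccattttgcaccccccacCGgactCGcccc
Huwe1: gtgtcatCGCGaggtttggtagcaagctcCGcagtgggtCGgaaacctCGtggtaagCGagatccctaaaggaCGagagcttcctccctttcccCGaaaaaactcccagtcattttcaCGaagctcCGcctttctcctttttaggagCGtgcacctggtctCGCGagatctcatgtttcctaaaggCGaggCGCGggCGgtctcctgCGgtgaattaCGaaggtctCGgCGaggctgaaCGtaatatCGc
The Magea2 stretch holds 8 CpG, the Taf7l stretch 14 and the Huwe1 stretch 23. Of 32841 mouse promoter stretches of this length, 43.0% hold at least 8, 29.4% at least 14 and 13.3% at least 23. A CpG reads the same on both strands. Methylation was not measured here.

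A further group of X-linked genes was low in lines 3 and 4 alone. Rhox9, a reproductive homeobox gene, measured 8.96, 9.34 and 9.16 in early lines 1, 2 and 5 and 7.41, 7.34 and 9.28 in late lines 3, 4 and 6. Its neighbour Rhox6 measured 7.02, 7.10 and 7.42 in early lines and 5.60, 5.14 and 7.30 in late lines. Lines 3 and 4 were lower than all others in both, and line 6 lay in the early range (differences -1.14 and -1.17). The Rhox9 difference was -1.78 without line 6, -0.84 without line 3 and -0.81 without line 4. Xlr4a, an X-linked lymphocyte-regulated gene, had the same form, at 12.64, 12.71 and 12.63 against 11.33, 11.59 and 12.72. So did Gm14685, at 8.07, 9.07 and 8.11 against 6.65, 6.30 and 8.38. Rhox6 and Rhox9 resemble each other closely enough that a probe may read both.

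The same form was present in an autosomal gene, Dppa3, which protects methylation marks in the early embryo. It measured 10.34, 10.27 and 10.90 in early lines and 9.51, 9.51 and 10.92 in late lines. Lines 3 and 4 were the lowest, and the class difference of -0.52 had a 95% interval of -1.40 to 0.35 and ranged from -1.0 to -0.29 with single lines left out.

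Genes known in mouse to be silenced by promoter methylation outside the germ line leaned lower. Of 11 tested among 22 listed, 9 were lower and 2 higher, with a median of -0.31 beside 0.00 for all named genes, of which 50.2% were lower. At an unadjusted p under 0.05, 4 were lower, namely the X-linked Rhox6, Rhox9 and Taf7l and the autosomal Asz1, and 0 were higher. Of all named genes 2.42% were lower at this p and 1.56% higher, and of X-linked genes 9.06% were lower. Since 78.3% of X-linked genes were lower at any p, the lean of this list was not separated from that of X. Asz1, which protects the germ line from transposons, measured 7.73, 7.64 and 7.25 in early lines and 7.28, 6.86 and 6.83 in late lines (difference -0.55, 95% interval -0.99 to -0.11), with line 5 just below line 3. The list mean, relative to each gene's mean over the 6 lines, was 0.26, 0.05 and 0.23 in the early lines and -0.37, -0.33 and 0.16 in the late lines. Line 6 again sat with the early ones. The list median was -0.17 without line 3 and -0.16 without background correction. Of the Mage family, 5 of 6 tested members were lower, with a median of -0.22 that was -0.13 without line 1, with 4 of 6 lower, and also -0.13 without line 3. Members of the family such as Magea2, Mageb4 and Magee1 lie on X, where 78.3% of genes were lower with a median of -0.16. The family was therefore not set apart from its chromosome.

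The DNA methylation genes were divided. Of 10 tested enzymes and readers, 6 were lower and 4 higher, with a median of -0.07, and of -0.02 without line 2. Dnmt3b, an enzyme that places new methylation and marks cells on the way to the primed state, measured 11.55, 12.30 and 11.03 in early lines and 10.67, 10.59 and 11.07 in late lines. Line 2 was highest and line 6 lay above line 5, with a difference of -0.85 (95% interval -1.55 to -0.15) that was -0.51 without line 2 and -0.20 within lines 4 to 6, and its second probe differed by -0.82. Mbd4, a glycosylase that repairs mismatches at methylated CpG, measured 7.29, 7.58 and 7.25 in early lines and 6.86, 6.95 and 6.80 in late lines, with classes apart (difference -0.50, 95% interval -0.84 to -0.17). Dnmt1, which maintains methylation, differed by 0.09 with a 95% interval of -0.25 to 0.43, and the cofactor Dnmt3l by -0.19 with an interval of -0.61 to 0.23. Both probes of Dnmt3a were above background on no array.

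Imprinted genes, expressed from 1 parental copy only, leaned lower apart from Slc22a18. Of 15 tested, 13 were lower and 2 higher, with a median of -0.28. The cell cycle inhibitor Cdkn1c measured 8.29, 8.77 and 8.05 in early lines and 7.77, 7.77 and 8.02 in late lines, with classes just apart (difference -0.52, 95% interval -0.98 to -0.05). The Cdkn1c difference was -0.32 without line 2 and -0.16 within lines 4 to 6. Igf2, a fetal growth factor, differed by -0.38, with a 95% interval of -0.85 to 0.09, and by -0.23 without line 2. Line 2 was high across the list, on average 0.33 above each gene's mean over the 6 lines, and without it the list median was -0.13. Without line 4 it was -0.17, without background correction also -0.17, and with the line set as covariate -0.15.

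Markers of fibroblasts, and so of feeder cells, leaned lower in late lines, and none passed the adjusted threshold in limma. Of 18 tested, 14 were lower and 4 higher, with a median of -0.33, while 50.2% of all named genes were lower. At an unadjusted p under 0.05, 6 were lower (Col1a1, Acta2, Bgn, Thy1, Dcn and Timp3), against 2.42% of all named genes, and 0 higher. Of the 18 tested, the classes did not overlap for 5 lower members and for 0 higher ones, against 4.7% and 3.75% of all named genes. The list mean, relative to each gene's mean over the 6 lines, was 0.08, 0.44 and -0.09 in early lines 1, 2 and 5 and -0.20, -0.11 and -0.11 in late lines 3, 4 and 6. Early line 5 was thus level with late lines 4 and 6. Col1a1, a chain of collagen type I, measured 6.85, 6.95 and 6.51 in early lines and 5.77, 6.04 and 6.40 in late lines (difference -0.71, 95% interval -1.17 to -0.25). Acta2, smooth muscle actin, measured 10.70, 11.01 and 10.41 in early lines and 9.96, 10.15 and 10.20 in late lines, 1.52-fold lower in the late ones (95% interval -1.02 to -0.19), and its 3 other probes differed by -0.42, -0.30 and -0.44. Bgn, the X-linked proteoglycan biglycan, measured 9.95, 10.54 and 9.74 against 9.41, 9.42 and 9.44.

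Not all markers took part. The 4 that were higher in late lines were Serpinh1 (0.33), Sparc (0.13), Mmp2 (0.05) and Ccn2 (0.05). Vim, an intermediate filament protein of fibroblasts that stem cells also express, measured between 9.81 and 10.09 in early lines and between 9.87 and 9.92 in late lines. Of 24 feeder markers with a named probe, 6 were above background on no array, namely Col1a2, Col3a1, Col5a2, Col6a2, Postn and S100a4. The summed intensity of the tested markers was 11046, 13285 and 11871 in early lines 1, 2 and 5 and 9004, 11926 and 11481 in late lines 3, 4 and 6, so the classes overlapped. The median of -0.33 became -0.12 without line 2, with 12 of 18 lower, and -0.18 without background correction. In bulk RNA, fewer cells of a type and less RNA per cell cannot be told apart, and the part of such cells in the other differences was not tested.

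**Figure D5:**
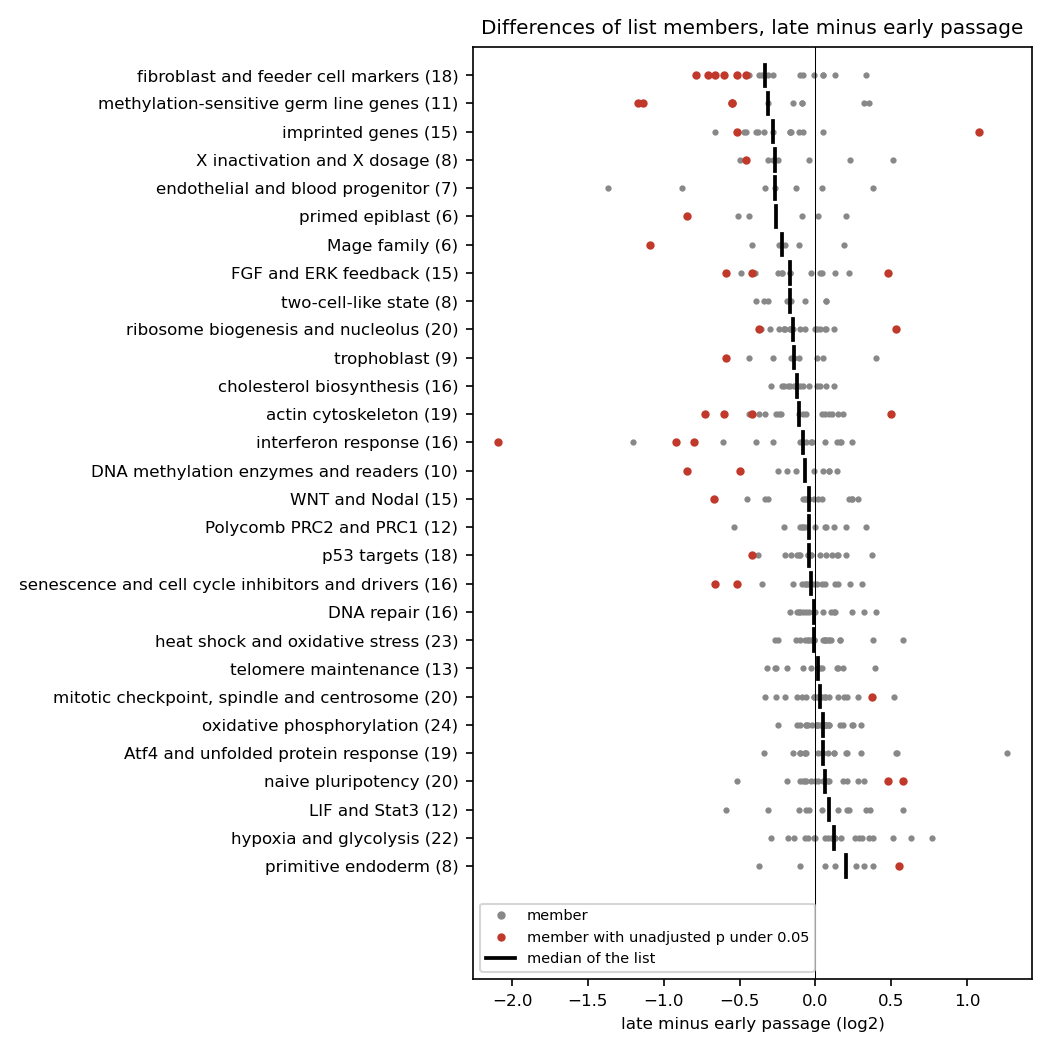
Late minus early difference (x axis, log2) of each tested member of the gene lists with at least 5 tested members, with members at an unadjusted p under 0.05 in red, the list median as a black bar and the number of tested members in brackets. List medians run from -0.33 for feeder cell markers to 0.20 for primitive endoderm, and most lists are centred near 0.

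Core pluripotency genes had small differences. Pou5f1 measured 12.17, 12.66 and 12.28 in early lines and 12.08, 12.42 and 12.38 in late lines, a difference of -0.07 with a 95% interval of -0.48 to 0.34. Nanog measured 12.64, 11.97 and 12.42 against 12.42, 12.57 and 12.59, a difference of 0.18 with an interval of -0.25 to 0.62. Sox2 differed by 0.05, with an interval of -0.34 to 0.44. With 6 lines, a true difference anywhere inside these intervals remains possible. The sign of each of these 3 differences changed when single lines were left out.

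Of 20 tested naive pluripotency genes, 13 were higher and 7 lower in late lines, with a median of 0.06, and 10 were higher and 10 lower without line 5 (median -0.02). At an unadjusted p under 0.05, 2 were higher, Fgf4 and Tbx3, and 0 lower, against 1.56% and 2.42% of all named genes. Tbx3, a transcription factor of the LIF circuit, measured 10.92, 10.01 and 10.72 in early lines and 11.36, 11.08 and 10.94 in late lines, with classes just apart (difference 0.58, 95% interval 0.02 to 1.14, and 0.31 without line 2). Its other probes differed by 0.72 and 0.65. Klf4, a naive factor and reprogramming gene, measured 11.17, 10.62 and 11.50 against 12.09, 11.68 and 11.26, with overlapping classes (difference 0.58, 95% interval -0.06 to 1.22, with 0.34 without line 2 and 0.37 without line 3). Esrrb, a nuclear receptor of the naive network, differed by 0.32, with classes apart (95% interval -0.11 to 0.75), and by 0.13 without line 2.

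FGF and ERK genes leaned the other way from their ligand. Of 15 tested, 10 were lower and 5 higher, while 50.2% of all named genes were lower. The list median was -0.17, and -0.08 without background correction. The receptor Fgfr1 measured 5.93, 5.70 and 5.85 in early lines and 5.51, 5.05 and 5.16 in late lines, and was above background on all early arrays and on 1 late one (difference -0.59, 95% interval -0.96 to -0.21). With 2 late values not above background, the size of the Fgfr1 difference is uncertain. The phosphatase Dusp4, which damps ERK, measured 8.22, 8.56 and 8.34 against 7.81, 7.78 and 8.27 (difference -0.42, 95% interval -0.83 to -0.00). Classes were apart for 4 lower members and for 1 higher member, Fgf4, against 4.7% and 3.75% of all named genes.

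Genes of differentiated fates gave few differences. Of the primed epiblast list, 4 of 6 tested members were lower (median -0.26). Dnmt3b alone was at an unadjusted p under 0.05, against 2.42% of all named genes lower at this p. The list median was -0.08, with 3 lower and 3 higher, when the line set was a covariate. It ranged from -0.46 without line 5 to -0.13 without line 1. Lines 1 and 2 were the high ones, on average 0.33 and 0.30 above each gene's mean over the 6 lines. Krt8, a keratin of simple epithelia and trophoblast, measured 8.93, 9.34 and 9.07 in early lines and 8.59, 8.35 and 8.64 in late lines, with classes apart (difference -0.59, 95% interval -0.96 to -0.21). It was 1 of 9 tested trophoblast genes, of which 6 were lower and 3 higher, Tead4 by 0.40. The median of that list was -0.14, and 0.21 without line 5. Lama1, a laminin chain made by primitive endoderm, measured 8.31, 7.88 and 8.49 against 8.74, 9.09 and 8.50 (difference 0.55, 95% interval 0.06 to 1.05). The median of the primitive endoderm list was 0.20, and 0.10 without line 3. Snai1, a repressor of epithelial genes at gastrulation, measured 5.97, 5.88 and 6.07 against 5.60, 5.64 and 5.71 (difference -0.32, 95% interval -0.62 to -0.02). Few members of the streak and neural lists were expressed, with 3 of 18 and 2 of 13 tested.

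Lists tied to long-term growth had medians near 0. The median was -0.04 for 18 tested p53 targets, 0.02 for 13 telomere genes, -0.03 for 16 genes of a list that joins cell cycle inhibitors with cyclins, their kinases and other cell cycle drivers, 0.03 for 20 genes of spindle and centrosome, and -0.01 for 16 DNA repair genes. The 6 tested Cdkn inhibitors of that list, a group singled out after its values were seen, differed by between -0.66 (Cdkn2b) and -0.05 (Cdkn1a). The p53 targets Cdkn1a and Mdm2 each differed by -0.05, with 95% intervals of -0.39 to 0.30 and -0.39 to 0.29. Cdkn2a, the gene of p16 and p19Arf, which accumulate in ageing cultures, measured 5.66, 5.64 and 5.96 in early lines and 5.63, 5.67 and 5.77 in late lines. Among spindle genes Tpx2, which activates Aurora A, was higher in late lines (difference 0.37, 95% interval 0.00 to 0.73). Tert and Terf1 were above background on no array.

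Metabolic and stress lists also had small medians. The median was 0.05 for 24 tested genes of oxidative phosphorylation, 0.12 for 22 of hypoxia and glycolysis, -0.12 for 16 of cholesterol synthesis, 0.05 for 19 of the unfolded protein response and -0.01 for 23 of heat shock and oxidative stress. None of their members reached an unadjusted p under 0.05 in limma. For hypoxia and glycolysis, line 2 was low, at a list mean of -0.36, and the median was 0.03 without it and 0.05 without line 4. For cholesterol synthesis the median was -0.04 without line 2, with 10 of 16 lower. In ribosome biogenesis, 14 of 20 tested genes were lower (median -0.15). That median was -0.02 without line 2, with 12 of 20 lower, -0.08 without line 6 and -0.07 with the line set as covariate. Nolc1, a nucleolar chaperone, was higher in late lines, at 5.09, 5.54 and 5.50 in early lines against 5.80, 6.15 and 5.78 (difference 0.53, 95% interval 0.12 to 0.95). It was above background on 2 early and on all 3 late arrays.

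Of 16 tested interferon genes, 11 were lower in late lines, while 50.2% of all named genes were lower. The list median was -0.08 and ranged from -0.25 to -0.04 with single lines left out. Of the interferon genes, 3 were lower at an unadjusted p under 0.05, namely Gbp2, Gbp3 and Oasl2, against 2.42% of all named genes. Gbp3 measured 6.24, 7.40 and 6.30 in early lines and 5.51, 5.70 and 5.98 in late lines (difference -0.92, 95% interval -1.62 to -0.21, and -0.54 without line 2), and its other probe differed by -0.99. The list mean, relative to each gene's mean over the 6 lines, was highest in line 2, at 0.55, and lowest in lines 3 and 4, at -0.33 and -0.21. Among actin genes, 12 of 19 were lower (median -0.11, and -0.06 with the line set as covariate). Actg2, the enteric smooth muscle form, was above background on all early arrays and on no late one, and its early level was at least 1.29-fold higher (limma, adjusted p = 0.995). Twf1, which caps actin filaments, was higher in late lines, at 5.54, 5.56 and 5.47 against 6.02, 6.27 and 5.77 (difference 0.50, 95% interval 0.13 to 0.86). It was above background on 2 early and on all 3 late arrays.

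Among the autosomes the largest medians followed single lines. Chromosome 2 had a median difference of 0.08, which was 0.00 without line 2, whose own median deviation there was -0.19. Chromosome 3 had a median of -0.06, which was 0.03 without line 3, whose deviation there was -0.21. The medians of the other autosomes lay between -0.04 and 0.04. From the Y chromosome only Uty, a histone demethylase relative, was tested, above background on 2 early and 2 late arrays, at 5.58, 5.81 and 5.27 in early lines and 5.67, 5.16 and 5.47 in late lines, and its classes overlapped.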

How the data were processed

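The deposited table holds a bead intensity for each probe and array on a linear scale and a detection p-value beside it, per the file headers. A second deposited table holds the authors' processed log2 values of the same arrays. Per the submitters' processing notes, BeadStudio 3.2, lumi and RMA were used, in roles that the notes leave unstated, and no genome build is named.

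Intensities were background-corrected, quantile normalized over all 8 arrays and put on the log2 scale with neqc in limma 3.58.1 (R 4.3.3), with an offset of 16 and the background inferred from the detection p-values. Since quantile normalization sets all arrays to 1 distribution, a difference in RNA per cell is not measured. A probe was tested where 3 or more of the 6 tNT arrays had a detection p under 0.01. Late and early classes were compared with lmFit and eBayes, 2-sided, with Benjamini-Hochberg adjustment over all 10764 probes. Summaries and figures used Python 3.11.15 with numpy 2.4.6, pandas 2.3.3 and matplotlib 3.10.9.

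Gene names came from the platform annotation, which gives 23978 probes 1 gene each, with symbols updated by gene identifier from RefSeq on GRCm38.p6 (23962 matched). Chromosome membership came from the same table. A gene is represented by its brightest probe over the 6 arrays. No pair of arrays shared exactly equal intensities for more than 1 probe. The labels do not say whether a line was cultured more than once, so intervals and p-values cover line-to-line spread that may be partly technical.

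The members, the gene lists and the split of lines 1 to 3 against 4 to 6 were chosen with earlier results of these data known. The genes named are the 12 of smallest p in each direction, the 6 of largest difference in each direction among genes at an unadjusted p under 0.05, at most 3 of each list, taken by smallest p, and 35 fixed by name. Rhox6, Xlr4a, Thy1, Dcn, Timp3, Serpinh1, Sparc, Mmp2 and Ccn2 were named after their values were seen. The model fits were first run on simulated arrays with known differences.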

Additional observations from a re-analysis of the deposited data

How the results depend on the processing

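The number of probes past an adjusted p of 0.05 in limma stayed at 0 under all 19 alternatives, which covered 5 other normalizations or value tables, 3 detection filters, 1 probe per gene, the variance model, array weights, a slope over passage number, the line set as a covariate and leaving out each line. The smallest adjusted p was 0.189 without line 6 and 0.509 with array weights. The number at an unadjusted p under 0.05, 444 in the main comparison, was 1134 with no detection filter, over more probes, and 920 with array weights, where the cause was not tested. It ranged from 223 without line 4 to 805 without line 5 when single lines were left out, and was 353 without line 2. The number of probes whose classes do not overlap was 2426 with no filter and ranged from 1444 to 2368 with a line left out, where fewer samples separate more often by construction. Of 2561 gene values under the alternatives, 40 reversed in 16 genes. Differences also grew or shrank with the line left out, as for Gbp2, at -2.75 without line 5 and -1.29 without line 2.

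Reversals concerned genes with differences near 0, and Cops8, whose values follow the line sets. With array weights the late minus early difference was 0.07 for Cdkn1a, -0.07 for Gsc, 0.36 for Nes, 0.10 for Pou5f1, 0.06 for Vim and -0.17 for Zfp42. Scaled over passage number it was 0.02 for Cdkn1a, 0.08 for Nes, 0.01 for Pou5f1, 0.02 for Vim and 0.00 for Zfp42. With the line set as covariate it was -0.34 for Cops8, 0.00 for Mdm2, -0.02 for Pramel39, 0.01 for Uty and 0.02 for Vim. With single lines left out it ranged from -0.14 to 0.34 for Gsc, from -0.41 to 0.34 for Nes, from -0.34 to 0.08 for Zscan4c, from -0.15 to 0.39 for Pramel39, from -0.26 to 0.02 for Uty, from -0.17 to 0.07 for Pou5f1, from -0.08 to 0.15 for Sox2, from -0.01 to 0.33 for Nanog, from -0.24 to 0.31 for Zfp42, from -0.11 to 0.15 for Lin28a, from -0.14 to 0.04 for Cdkn1a, from -0.12 to 0.04 for Cdkn2a, from -0.13 to 0.06 for Mdm2, from -0.06 to 0.08 for Vim and from -0.01 to 0.17 for Dnmt1.

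No paired analysis was possible because early lines 1, 2 and 5 and late lines 3, 4 and 6 share no number. With 3 lines a class, the 95% interval of a difference reached a median of 0.40 to either side, and dim probes near background carry less precise values.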
